A study of Mus musculus with 26 samples.

Results

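The 4 FGF receptor genes Fgfr1, Fgfr2, Fgfr3 and Fgfr4 and 6 genes of the FGF-ERK feedback circuit, Spry1, Spry2, Spry4, Dusp6, Etv4 and Etv5, were followed through 26 RNA sequencing libraries of mouse mammary tumors and tumor organoids. The genes were chosen by name, after their Ensembl identifiers had been matched to mouse symbols, and make up 10 of the 37310 genes counted. The choice was made with earlier results of these data known. All libraries came from the MMTV-PyMT genotype on the C57BL/6 strain, in which a viral promoter active in mammary epithelium drives the polyoma middle T oncogene, so tumors and controls alike carry the transgene. Mice were given subcutaneous antisense oligonucleotides (ASOs) at 125 mg/kg per week over several weeks, and tumors were taken from mice given Malat1 ASO1 (3 libraries), Malat1 ASO2 (4 libraries) or the control oligonucleotide scASO (3 libraries). Organoids are small pieces of tumor epithelium kept in a gel, here Matrigel, with FGF2 in the medium of every culture, Mock included. They received 500 nM of ASO1, ASO2 or scASO for 6 days, renewed after 3 days, or were labelled Mock, with 4 libraries in each of the 4 groups. No source used here states the age of the mice, how many tumors went into an organoid preparation or what a replicate number stands for.

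FGF ligands bind receptor tyrosine kinases of the FGFR family together with heparan sulfate, and the activated receptor signals through the adaptor FRS2 to RAS, RAF, MEK and the kinase ERK. ERK raises transcription of its own inhibitors, among them the Sprouty genes and the ERK phosphatase gene Dusp6, and of the ETS transcription factor genes Etv4 and Etv5, so that these transcripts are widely used as readouts of FGF-ERK activity. In the mammary gland, FGF signalling is known for its part in branching of the epithelium. Polyoma middle T antigen also feeds the RAS and ERK pathway, so the same transcripts are not specific to FGF in these cells.

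Reads assigned to genes numbered 9939520 to 51363552 per tumor library and 23973533 to 65146030 per organoid library. Levels are given as CPM, read counts scaled to a common library size, here with TMM-scaled library sizes. Malat1, the ASO target, lay at 381 to 913 CPM in the 7 tumors given either Malat1 ASO and at 847 to 1914 CPM in the scASO tumors. In organoids it lay at 87 to 186 CPM with ASO1 and at 713 to 1578 CPM with Mock. The library labelled ASO2 replicate 1 had 1485 CPM, against 95.6 to 307 in the other 3 with that label, and the library labelled scASO replicate 2 had 119 CPM, against 781 to 1191. Both libraries were kept under their labels, and the tests of members and the pathway counts are given with them and, where a call or count differs, without them. Organoid libraries that share a replicate number deviated together from their group means over all genes, and those numbered 4 stood furthest apart. The defining luminal markers were present throughout, at a summed level of 3236 to 5740 CPM in tumors and 5039 to 9772 CPM in organoids. In whole tissue, fewer cells of a type and less RNA per cell cannot be told apart, and since nothing says that the libraries of a group came from separate animals or cultures, the p-values reflect library-to-library spread alone, which may be technical.

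Promoter sequences are shown for the feedback genes that could be matched, because Spry2, Dusp6 and Etv5 were all higher in organoids than in tumors; Spry1, which was not called, is shown beside them. RefSeq promoter windows on GRCm38.p6 covered 7 of the 10 genes, and Fgfr1, Spry4 and Etv4 had no window. The bases upstream of the annotated gene start are printed 5′ to 3′ on the strand of the gene. Capitals mark GGAA, the core of sites bound by ETS factors such as ETV4 and ETV5, read on either strand.
Spry1 chr3:37639697-37639946, plus strand: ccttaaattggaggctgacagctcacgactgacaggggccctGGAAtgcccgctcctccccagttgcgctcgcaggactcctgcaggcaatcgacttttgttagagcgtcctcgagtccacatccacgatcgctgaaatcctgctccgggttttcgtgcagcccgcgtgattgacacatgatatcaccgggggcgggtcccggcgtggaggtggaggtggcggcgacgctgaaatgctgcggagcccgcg
Spry2 chr14:105896820-105897069, minus strand: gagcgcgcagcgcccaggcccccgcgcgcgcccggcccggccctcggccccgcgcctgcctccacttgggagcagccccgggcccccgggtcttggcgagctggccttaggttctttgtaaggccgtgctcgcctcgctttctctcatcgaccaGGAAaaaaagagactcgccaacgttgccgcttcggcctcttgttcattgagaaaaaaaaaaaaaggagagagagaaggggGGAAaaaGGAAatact
Dusp6 chr10:99262981-99263230, plus strand: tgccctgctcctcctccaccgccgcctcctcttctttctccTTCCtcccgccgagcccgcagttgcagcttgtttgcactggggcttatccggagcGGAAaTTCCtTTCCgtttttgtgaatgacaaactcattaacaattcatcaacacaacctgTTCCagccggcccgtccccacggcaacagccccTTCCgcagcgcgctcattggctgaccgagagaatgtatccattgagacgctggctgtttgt
Etv5 chr16:22439720-22439820, minus strand: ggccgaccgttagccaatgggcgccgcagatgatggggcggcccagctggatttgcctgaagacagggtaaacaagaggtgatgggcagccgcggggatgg
In the 250 bases upstream of the RefSeq start, Dusp6 held 6 such cores, Spry2 held 3 and Spry1 held 1. The window of the upstream Etv5 start, whose outer 101 bases are printed, held none, and the window of the other Etv5 start held 4. This core is common: 93.4% of all 32851 promoter windows of that length hold it at least once. The longer ETS sequence CGGAAG, which contains the core, was found in Dusp6 alone among the matched members and in 13.6% of all windows. CCGGAA was found in Fgfr4 and in 12% of all windows. The octamers TGAATGAA and TGAATGGA are bound by Capicua, an ERK-regulated repressor of Etv4 and Etv5. They occur in 1.08% and 1.01% of all windows and in no window of the 7 matched members. This says only that these letters are not there, and Etv4 had no window to search. Both strands were searched for every motif.

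Fgfr1 made up most receptor RNA in every library. Per kilobase of exon it lay at 24.9 to 99.5 CPM in tumors (median 44, n = 10) and at 38.8 to 129 CPM in organoids (median 93.3, n = 16), while the highest value of the other receptors was 10.3 CPM per kilobase, for Fgfr2 in a tumor. Of the summed level of the 4 receptors per kilobase, Fgfr1 held 72.9 to 94.8% in tumors (median 89.1%) and 78.9 to 97.3% in organoids (median 96%). The order of the medians was Fgfr1, Fgfr2, Fgfr3 and Fgfr4 in both systems, but Fgfr2 and Fgfr3 overlapped widely. These shares describe RNA counted over all isoforms of a gene, since the counts do not separate the b and c splice forms that set ligand choice.

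**Figure D1:**
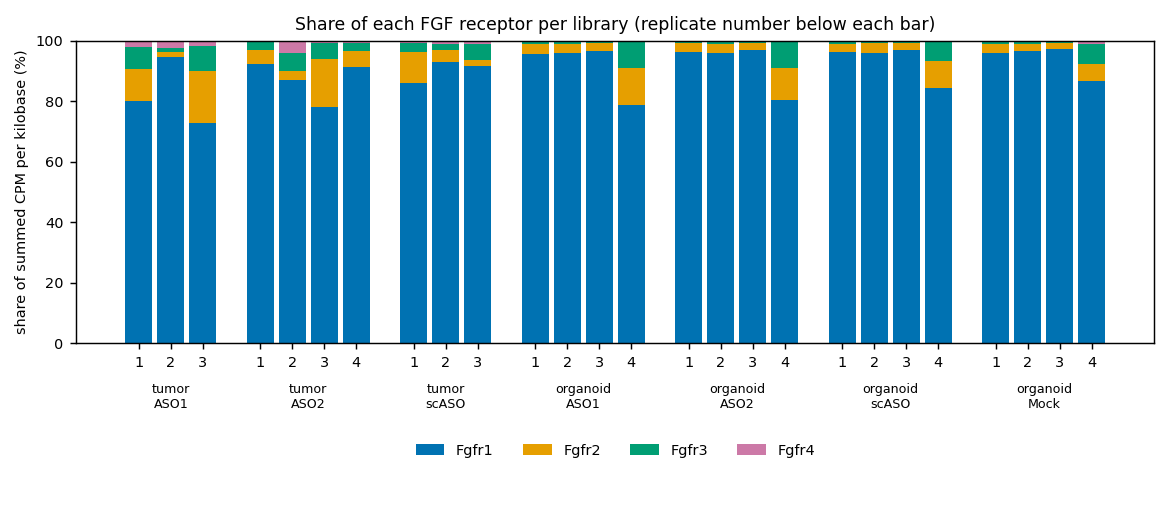
Share of each FGF receptor in the summed level per kilobase of exon (y axis, %), 1 bar per library, with the replicate number below each bar. Fgfr1 holds 72.9% or more in every bar, and in organoids its share is lowest in the libraries numbered 4, at 78.9 to 86.8%.

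Fgfr1 (ENSMUSG00000031565, chr8:25513654-25575718 on GRCm38) encodes the receptor whose c form is a main receptor of FGF2. The scASO tumors had 409, 435 and 573 CPM, and the scASO organoids 1010, 908, 1000 and 450 CPM in replicates 1 to 4. Only the organoid numbered 4 lay within the range of the tumors. The log2 fold change was 0.83 ± 0.46 (SE), which did not pass the test (adjusted p = 0.187, edgeR quasi-likelihood test with Benjamini-Hochberg adjustment). Across all tumors the highest Fgfr1 level, 983 CPM, was that of ASO2 replicate 1. Summed skeletal muscle markers were also highest there, at 1916 CPM, as were summed adipocyte markers, at 577 CPM. Their part in the Fgfr1 level was not tested.

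Fgfr2 (ENSMUSG00000030849), whose b form is the main epithelial receptor of FGF7 and FGF10, was among the most variable members in tumors. It ranged from 8.44 CPM in ASO1 replicate 2 to 106 CPM in ASO1 replicate 3. The organoids spanned 23.4 to 60.7 CPM and lay inside that range. Fgfr3 (ENSMUSG00000054252, chr5:33721674-33737068) had 5.15 to 35.8 CPM in tumors and 4.48 to 32.7 CPM in organoids. Neither gene passed the test between scASO organoids and scASO tumors, with log2 fold changes of 0.31 ± 0.60 for Fgfr2 and -0.36 ± 0.83 for Fgfr3.

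Fgfr4 (ENSMUSG00000005320, chr13:55152640-55168759), a receptor for FGF19-type endocrine ligands and for several paracrine ones, had the lowest median per kilobase of the receptors in both systems. It had 1.48, 1.85 and 2.55 CPM in the scASO tumors and 0.608, 0.278, 0.087 and 0.705 CPM in the scASO organoids. All 4 organoid values were below the lowest tumor value. It was lower in organoids by the test, with a log2 fold change of -2.21 ± 0.76 (edgeR adjusted p = 0.039). The scASO organoids held only 2 to 22 reads of Fgfr4, so counting error is large. The call was lost without both libraries that go against their labels (log2 fold change -2.05 ± 0.86, edgeR adjusted p = 0.108). It was also lost on leaving out any 1 scASO tumor or any of the scASO organoids numbered 1 to 3, with edgeR adjusted p between 0.0539 and 0.118.

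The Sprouty genes encode membrane-linked inhibitors of receptor tyrosine kinase signalling to ERK. Spry2 (ENSMUSG00000022114, chr14:105891947-105896819) had 51.7, 49.8 and 46 CPM in the scASO tumors and 84.2, 87.7, 101 and 116 CPM in the scASO organoids. All organoid values were above all tumor values. The log2 fold change was 0.98 ± 0.20 (edgeR adjusted p = 0.00147), a level 1.98 times as high in organoids. Spry4 (ENSMUSG00000024427) had 18.5, 20 and 31.4 CPM in the scASO tumors and 71.6, 67.1, 79.4 and 46.5 CPM in the scASO organoids. Here too the groups did not overlap, and the log2 fold change was 1.50 ± 0.39 (edgeR adjusted p = 0.00825), or 2.84-fold.

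Spry1 (ENSMUSG00000037211, chr3:37639947-37644598) had 22.8, 23 and 23.9 CPM in the scASO tumors, values that lay close together. The scASO organoids had 29.1, 30.9, 28.8 and 44.2 CPM. The groups did not overlap, but the log2 fold change of 0.52 ± 0.31 did not pass the test in the fit of all 7 groups (edgeR adjusted p = 0.224).

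Dusp6 (ENSMUSG00000019960, chr10:99263231-99267489) encodes the cytoplasmic phosphatase that inactivates ERK and had the highest level per kilobase of exon among the 6 feedback genes in each scASO library. It had 170, 189 and 128 CPM in the scASO tumors and 556, 600, 402 and 406 CPM in the scASO organoids. The lowest organoid lay well above the highest tumor. It was 3.03-fold higher in organoids (log2 fold change 1.60 ± 0.27, edgeR adjusted p = 0.000293).

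Etv4 and Etv5 encode ETS factors of the PEA3 family that act downstream of FGF receptors in branching epithelia. Etv4 (ENSMUSG00000017724, chr11:101769742-101785371) had 22.4, 29.1 and 26.7 CPM in the scASO tumors and 153, 144, 70 and 164 CPM in the scASO organoids. It had the highest fold of the 10 genes, 5.1-fold (log2 fold change 2.35 ± 0.38, edgeR adjusted p = 0.000194). Etv5 (ENSMUSG00000013089, chr16:22381309-22439719) had 144, 161 and 133 CPM in the scASO tumors and 385, 365, 518 and 194 CPM in the scASO organoids, again with no overlap. Its log2 fold change of 1.32 ± 0.47 passed narrowly (edgeR adjusted p = 0.0442). The call was lost without both libraries that go against their labels (edgeR adjusted p = 0.0817 at a log2 fold change of 1.32), and on leaving out any 1 scASO tumor or any of the scASO organoids numbered 1 to 3 (0.0716 to 0.134). It was also lost, at 0.051 to 0.0511, without tumor ASO1 replicate 1, tumor ASO2 replicate 3 or the organoid library labelled ASO2 replicate 1.

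Of the 10 genes, 5 were thus higher and 1 lower in scASO organoids than in scASO tumors. Over the 18695 genes tested, 11.4% were called higher and 12.1% lower, 23.5% in all. Without both libraries that go against their labels, 4 members kept the call, Spry2, Spry4, Dusp6 and Etv4, all higher; of the 18632 genes tested then, 8.09% were called higher and 8.5% lower, 16.6% in all. Other tools called more of the 18695 genes, 28.7% by DESeq2 (6 members) and 58.2% by limma with voom weights (8 members). With all 10 tumors set beside all 16 organoids, the levels of the same 4 genes did not overlap, and all 4 were higher in organoids: Spry2 at 81.5 to 131 against 31.9 to 60 CPM, Spry4 at 33 to 103 against 10.6 to 31.4, Dusp6 at 369 to 732 against 128 to 211, and Etv4 at 67.9 to 210 against 20 to 43.3. Of 14690 genes with a mean of at least 1 CPM (Fgfr4 added), 6.32% were higher and 5.38% lower without overlap. Tumors and organoids differ in the animal's stroma, the medium with FGF2, the gel and the route and dose of the oligonucleotide at once, and these cannot be told apart.

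Marker levels differed along with these genes. In scASO tumors, summed endothelial markers were at 59.1 to 69.6 CPM, against 7.35 to 30.4 CPM in scASO organoids. Summed fibroblast markers were at 647 to 814 against 193 to 582 CPM, and summed leukocyte markers at 452 to 654 against 270 to 486 CPM. Single markers fell further: edgeR called 4 of 8 lower in each of these 2 lists, with median log2 fold changes of -1.18 and -2.10. In organoids the highest medians were those of Postn (290 CPM, 314 in tumors) and Cd14 (272 CPM, 152 in tumors). Each list had 1 marker with a higher estimate in scASO organoids. Summed basal and myoepithelial markers were at 350 to 1324 CPM in scASO tumors and 2224 to 6661 CPM in scASO organoids. That list was split, with 4 of 8 markers called higher by edgeR, 0 lower, and log2 fold changes from -1.57 to 4.19. Medians over all tumors and all organoids were 99.1 and 1493 CPM for Krt5, and Krt14, Krt17 and Trp63 were also higher in organoids. Mylk (113 and 46.9), Cnn1 (52.6 and 17.8) and Oxtr (30.6 and 23.4) were lower, and Acta2 was close (288 and 296). Of 8 markers each, 2 endothelial, 4 adipocyte and 4 skeletal muscle genes never reached 1 CPM in any organoid, and all 8 fibroblast and all 8 leukocyte markers reached it in at least 1. The part of these cells in the member differences was not tested.

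**Figure D2:**
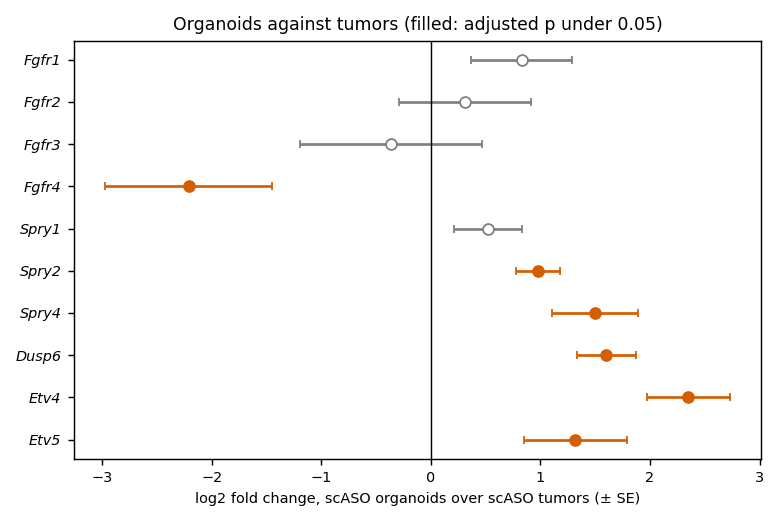
Log2 fold change of each gene, scASO organoids (4 libraries) over scASO tumors (3 libraries), with bars of 1 SE. Filled points have an edgeR adjusted p under 0.05: Spry2, Spry4, Dusp6, Etv4 and Etv5 lie to the right of 0, and Fgfr4 to the left at -2.21.

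**Figure D3:**
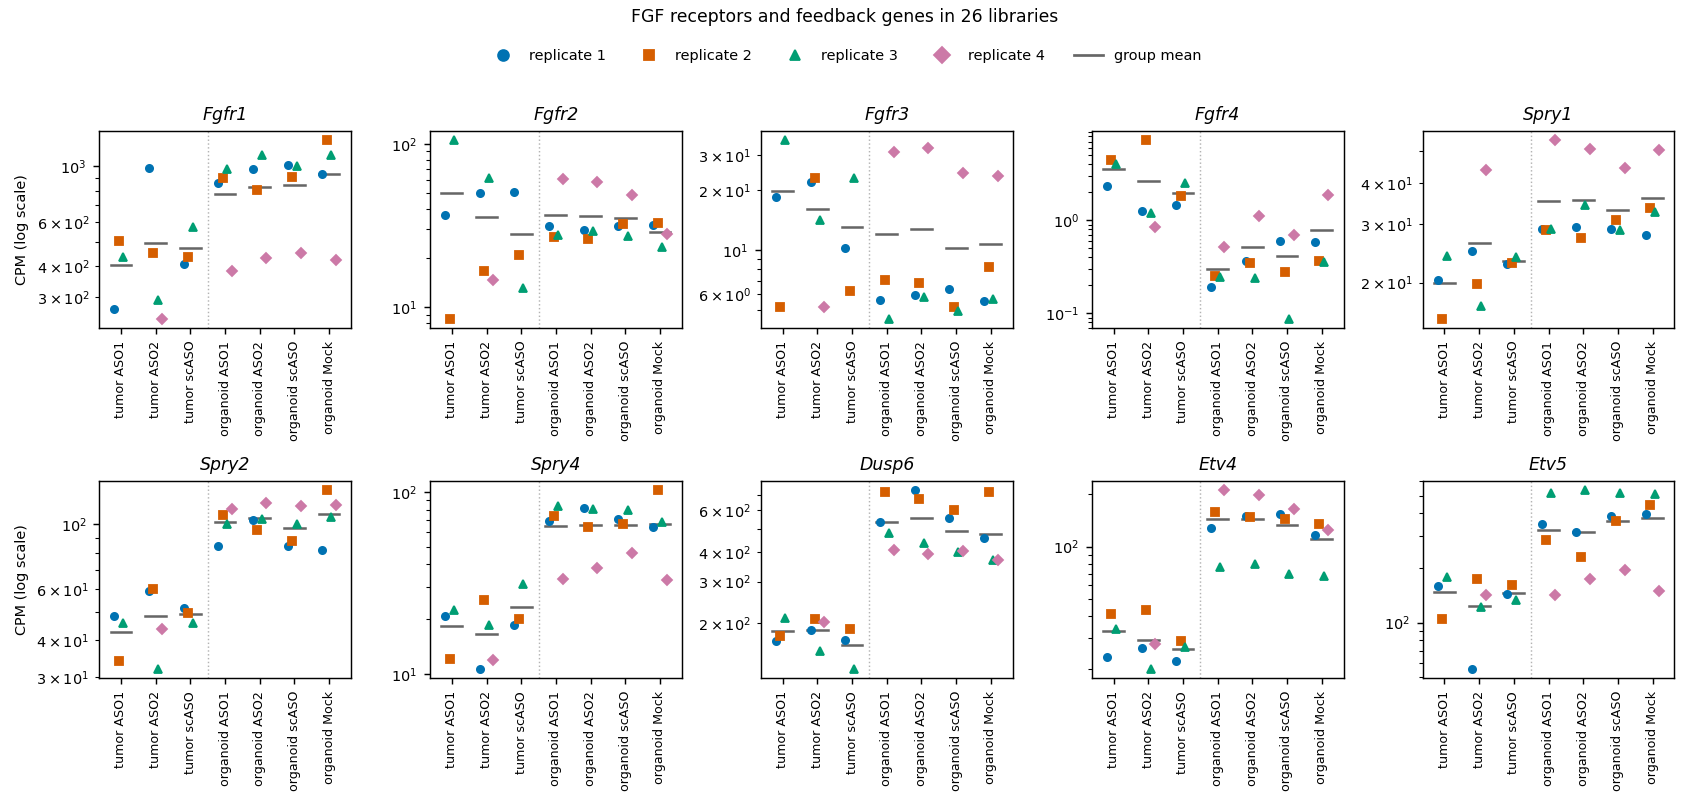
Level of each gene in all 26 libraries (CPM, log scale), by group on the x axis, with marker shape and colour for the replicate number and a grey line for the group mean. Spry2, Spry4, Dusp6 and Etv4 show no overlap between the tumor groups on the left and the organoid groups on the right of the dotted line, and organoids numbered 4 stand apart for Fgfr1, Fgfr3, Spry1, Spry4 and Etv5.

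The wider pathway was read from 6 lists with 94 genes, of which 82 were tested between scASO organoids and scASO tumors. Of these, 26 were called higher and 4 lower, where 11.4% and 12.1% of all 18695 genes tested were. The lists were written with earlier results of these data known, so their counts and medians are descriptions and not a test of the pathway. The same shares stand beside the counts of the single lists below. Without both libraries that go against their labels, 19 of the 82 were higher and 3 lower, where 8.09% and 8.5% of 18632 genes were. Of the called genes named below, Frs2, Mapk3 and Araf were then no longer called (edgeR adjusted p = 0.0562, 0.0814 and 0.0588). The list of FGF ligands holds 22 genes, among them the intracellular factors Fgf11, Fgf12, Fgf13 and Fgf14, which are not classical receptor ligands. Of these 22 genes, 12 were tested, 1 was higher (Fgf12, not a secreted ligand) and 2 were lower (Fgf1 and Fgf16). Fgf1, a ligand for all FGF receptors, had the highest mean CPM of the list over the 26 libraries. It lay at 20.3 to 217 CPM in tumors and 8.6 to 45.7 CPM in organoids (log2 fold change -1.65 ± 0.49, edgeR adjusted p = 0.0178). Fgf12 and Fgf16 stayed at or below 4.13 CPM in every library, and 11 of the 21 listed genes with reads never reached 1 CPM. Fgf2, the ligand added to the organoid medium as protein, had at most 1.92 CPM as a transcript.

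Among co-receptors and heparan sulfate genes, 8 of 21 tested were higher and 1 was lower, with a median log2 fold change of 0.80, against -0.001 over all genes tested. Sdc1, the syndecan of epithelial cells, had the highest mean CPM of the list over the 26 libraries, although Sulf2, Sdc4, Ndst1 and Sdc3 had higher medians in tumors. It had 61.8 to 204 CPM in tumors and 386 to 1624 CPM in organoids (log2 fold change 2.22 ± 0.47, edgeR adjusted p = 0.00191). Ext1, a heparan sulfate polymerase, and Gpc4, a glypican, also rose, by 1.59 ± 0.35 and 0.90 ± 0.16 (edgeR adjusted p = 0.00243 and 0.000593). Of 12 receptor adaptors, 4 were higher and none lower, including Frs2, the docking protein of FGF receptors (log2 fold change 0.48 ± 0.15, edgeR adjusted p = 0.021), and Cbl, a ubiquitin ligase for receptors (1.51 ± 0.41, 0.0113). Of 13 genes of the RAS to ERK cascade, 3 were higher and 1 lower. Mapk3, an ERK gene, rose by 0.49 ± 0.16, and Araf, a RAF kinase gene, fell by 0.48 ± 0.16 on the log2 scale (edgeR adjusted p = 0.0284 and 0.0332).

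Beyond the Sprouty genes and Dusp6, a list of other inhibitors of ERK signalling, not all of them feedback genes, had 3 of 14 tested genes higher. They were Dusp4, a nuclear ERK phosphatase (log2 fold change 2.31 ± 0.48, edgeR adjusted p = 0.00161), Spred2 (0.62 ± 0.16, 0.00714) and Rasa1 (0.47 ± 0.16, 0.0337). Errfi1, the gene of that list with the highest mean CPM over the 26 libraries and an inhibitor of EGF receptor, had a log2 fold change of -0.36 ± 0.38 and was not called. In the list of other ERK-induced genes, 7 of 10 were higher, with a median log2 fold change of 1.79. The 10 include Cic, which encodes Capicua, the ERK-regulated repressor named above rather than an ERK-induced gene. Its median was 146 CPM in tumors and 293 CPM in organoids. The immediate early gene Egr1 rose by 2.06 ± 0.34, Ier3 by 2.68 ± 0.31 and the cyclin gene Ccnd1 by 2.32 ± 0.40 (edgeR adjusted p = 0.000236, 7.82e-06 and 0.000371). Ccnd1 lay at 99.5 to 424 CPM in tumors and 471 to 1670 CPM in organoids, without overlap.

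Malat1 ASOs were then compared with the controls, ASO1 and ASO2 sharing the same scASO libraries in each system. None of the 10 genes was called in tumors or in organoids. In tumors, 17354 genes were tested, and 0.00576% were called for ASO1 against scASO. For ASO2 against scASO, both ASOs against scASO and ASO1 against ASO2, 0% were called. Unadjusted p-values under 0.05 numbered 1466, 892, 1017 and 1743 in these 4 edgeR comparisons, and none belonged to a member. In organoids, 17126 genes were tested, and 0% were called for ASO1, ASO2 and both ASOs against scASO and for ASO1, ASO2 and scASO against Mock, with 44, 287, 182, 331, 312 and 272 genes at an unadjusted p under 0.05 in that order. Those counts are from edgeR, and other tools called more genes in some comparisons. DESeq2 called 0.645%, 0.259%, 0.115% and 0.859% in the 4 tumor comparisons, and in organoids 0.0409% for ASO1 and 0.00584% for scASO against Mock. With limma and voom weights, 23.2% (3974 genes) were called for ASO2 against scASO organoids and 6.01% (1029 genes) for both ASOs. Members numbered 0 among the calls of either tool.

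Dusp6 had 168, 177 and 211 CPM in ASO1 tumors and 188, 208, 153 and 202 CPM in ASO2 tumors, beside the 128 to 189 CPM of scASO tumors. The groups overlapped, and the log2 fold changes were 0.21 ± 0.20 for ASO1 and 0.22 ± 0.19 for ASO2. Spry4 had 20.9, 12.1 and 22.4 CPM with ASO1 and 10.6, 25.7, 18.5 and 11.9 CPM with ASO2, where scASO tumors had 18.5 to 31.4 CPM. Its log2 fold changes were -0.31 ± 0.37 and -0.47 ± 0.34. The estimates of Fgfr2, 0.86 ± 0.85 and 0.36 ± 0.79, and of Fgfr4, 0.91 ± 0.74 and 0.47 ± 0.70, had wide errors. Fgfr4 reached 7.34 CPM in ASO2 replicate 2, where the other 3 tumors of that group had 0.843 to 1.25 CPM. For Etv4 and Etv5 the tumor estimates were 0.35 ± 0.29 and 0.04 ± 0.34 with ASO1, and 0.18 ± 0.27 and -0.24 ± 0.32 with ASO2.

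In organoids, Dusp6 had 536, 721, 483 and 409 CPM with ASO1, 732, 669, 436 and 392 CPM with ASO2 and 459, 716, 371 and 369 CPM with Mock, in the order of the replicate numbers. These groups overlapped almost fully with each other and with scASO. Against scASO, the log2 fold changes were 0.12 ± 0.25 for ASO1 and 0.18 ± 0.25 for ASO2. Over the 10 members, estimates against scASO lay between -0.46 and 0.23 for ASO1 and between -0.22 and 0.32 for ASO2. The response to both ASOs in organoids minus that in tumors lay between -0.74 and 0.40 on the log2 scale. No member was called in that test of the difference, and 0% of 18695 genes were called by edgeR (831 at an unadjusted p under 0.05), against 0.0107% by DESeq2 and 1.5% by limma with voom weights.

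**Figure D4:**
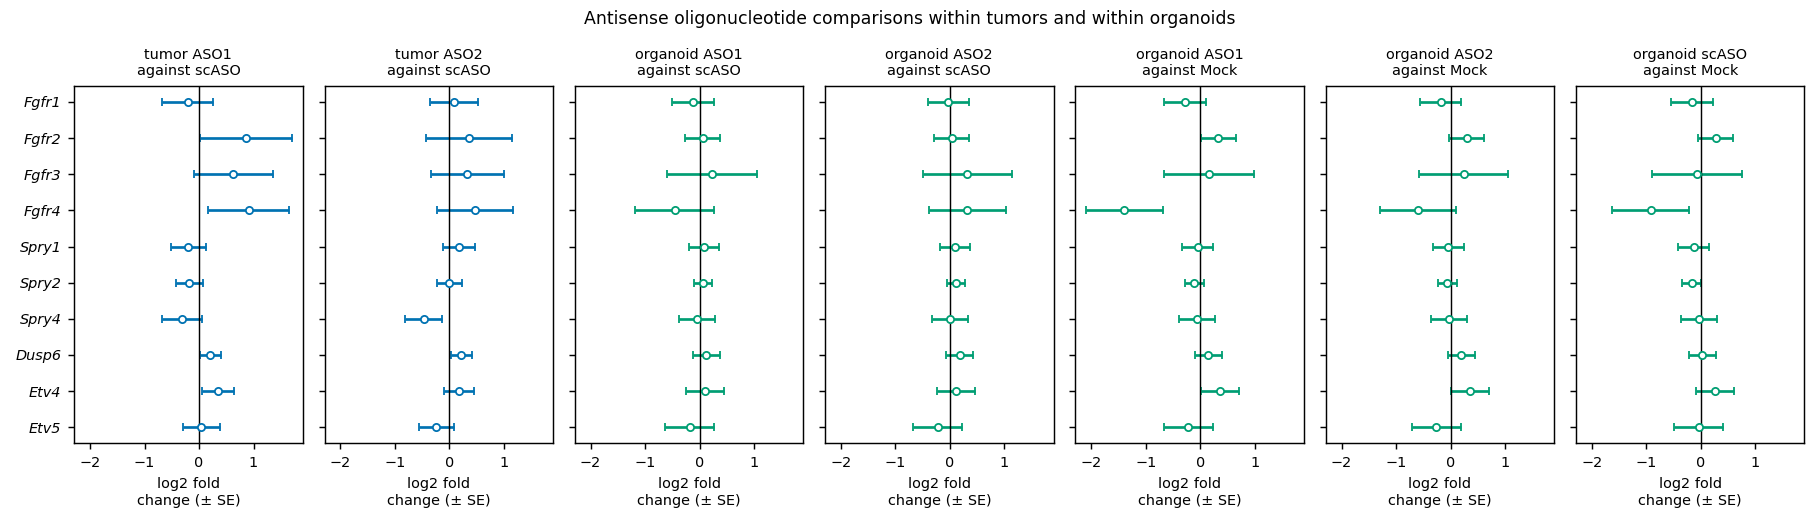
Log2 fold change with 1 SE for each gene in 7 comparisons, tumors in blue and organoids in green, without the replicate number in the fit. No point is called, and the lowest is Fgfr4 for ASO1 against Mock, at -1.39.

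Because organoids with the same number pair up, the fit was repeated with the replicate number as a block. Against Mock, 2.38% of genes were then called for ASO1, 1.82% for ASO2 and 0.747% for scASO, and 0% in the comparisons with scASO and in the difference between the systems. Again 0 of 10 members were called in each. Etv4 came nearest along with Fgfr4. Etv4 was higher than the same-numbered Mock library in all 12 pairs, that is, with ASO1, ASO2 and scASO alike. The blocked log2 fold changes of Etv4 were 0.31 ± 0.10 for ASO1, 0.33 ± 0.10 for ASO2 and 0.23 ± 0.10 for scASO (edgeR adjusted p = 0.151, 0.131 and 0.311). Fgfr4 was lower than Mock in 11 of 12 pairs, at only 2 to 66 reads per organoid library. Its blocked log2 fold changes were -1.18 ± 0.35, -0.55 ± 0.33 and -0.75 ± 0.35 (edgeR adjusted p = 0.107, 0.442 and 0.324). Without both libraries that go against their labels, 6.69%, 3.42% and 1.78% of 17325 genes were called, and the lowest blocked edgeR adjusted p of a member was 0.0599, for Fgfr4 with ASO1. The 3 comparisons share the Mock libraries.

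Pathway genes outside the 10 were called in the blocked fit, 3 of 78 for ASO1 and 4 of 78 for ASO2 against Mock. All were higher, and 0 of 78 were called for scASO against Mock. Over all 17126 genes tested, 2.38%, 1.82% and 0.747% were called in either direction. Without both libraries that go against their labels the blocked counts were 10 higher and 1 lower (Etv1) for ASO1, 4 higher for ASO2 and 1 higher (Lrig1) for scASO. Of all 17325 genes tested then, 6.69%, 3.42% and 1.78% were called in either direction. Sdc1 and Gpc1, heparan sulfate proteoglycans, passed with both ASOs: blocked log2 fold changes of Sdc1 were 0.62 ± 0.14 and 0.78 ± 0.14 (edgeR adjusted p = 0.0378 and 0.0215), and those of Gpc1 were 0.33 ± 0.07 and 0.42 ± 0.07 (0.0285 and 0.016). With scASO they were 0.25 ± 0.14 for Sdc1 and 0.18 ± 0.07 for Gpc1, not called. Gpc4 passed with ASO1 (0.30 ± 0.07, 0.0323), and Dusp7, an ERK phosphatase gene (0.51 ± 0.11, 0.0328), and the ERK-induced Fosl1 (1.60 ± 0.37, 0.0472) passed with ASO2. Of these, Fosl1 was not called without both libraries that go against their labels (edgeR adjusted p = 0.054), and the others kept their calls. None of these was called against scASO by edgeR, with or without the block.

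Within organoids the replicate number went with far larger differences than the oligonucleotide. Of the sum of squares of log2 CPM over the 16 organoid libraries, 53.9% (Spry2) to 96.7% (Fgfr3) lay between numbers, and 0.409% (Spry4) to 18.5% (Fgfr4) between treatments. The medians over 12866 genes were 73.2% and 7.98%. The organoids numbered 4 carried a different receptor profile: Fgfr1 was at 383, 431, 450 and 424 CPM (ASO1, ASO2, scASO, Mock), below the 804 to 1273 CPM of the other 12 libraries. Fgfr3 was at 31, 32.7, 24.5 and 23.5 CPM, above the 4.48 to 8.19 CPM of the others. Spry1 was higher in number 4, at 44.2 to 53.9 against 27.2 to 34.4 CPM, while Spry4, at 33 to 46.5 against 64.2 to 103 CPM, and Etv5, at 142 to 194 against 231 to 538 CPM, were lower. Among the Sprouty genes, then, Spry1 and Spry4 lay on opposite sides of the other organoids in the same libraries.

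Of the 10 members, 2 were higher and 3 were lower in number 4 without overlap, where 12.4% and 14.3% of 14202 genes with a mean of at least 1 CPM in organoids were. Fgfr2 was at 60.7, 58.9 and 48.8 CPM with ASO1, ASO2 and scASO in number 4, but at 27.9 CPM in the Mock library of that number, inside the 23.4 to 32.8 CPM of numbers 1 to 3. Summed basal and myoepithelial markers were at 5270 to 9212 CPM in number 4 and 1877 to 5382 CPM in the others. Summed adipocyte markers were at 83 to 127 against 13.6 to 22.6 CPM, although the defining adipocyte gene Adipoq never exceeded 0.438 CPM in an organoid. The part of these cells in the member levels was not tested.

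In number 3, Etv4 and Etv5 lay on opposite sides of the other organoids. Etv4 was at 76.7, 79.1, 70 and 67.9 CPM there, below the 117 to 210 CPM of the other numbers, and Etv5 was at 520, 538, 518 and 514 CPM, its highest values. Of the 10 members, Etv5 alone was higher and Etv4 alone lower in number 3 without overlap, where 9.21% and 7.64% of the 14202 genes were. Members were thus set apart in number 3 about as often as genes at large. The ratio of Etv5 to Etv4 CPM was 6.78 to 7.57 in number 3 and 0.678 to 1.21 in number 4, against 1.57 to 3.39 in numbers 1 and 2 and 2.11 to 6.83 in tumors. Dusp6 was lower in numbers 3 and 4 (369 to 483 CPM) than in numbers 1 and 2 (459 to 732 CPM), with overlap. Summed fibroblast markers were at 117 to 194 CPM in number 3 and 239 to 668 CPM in the other numbers, and their part was not tested.

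**Figure D5:**
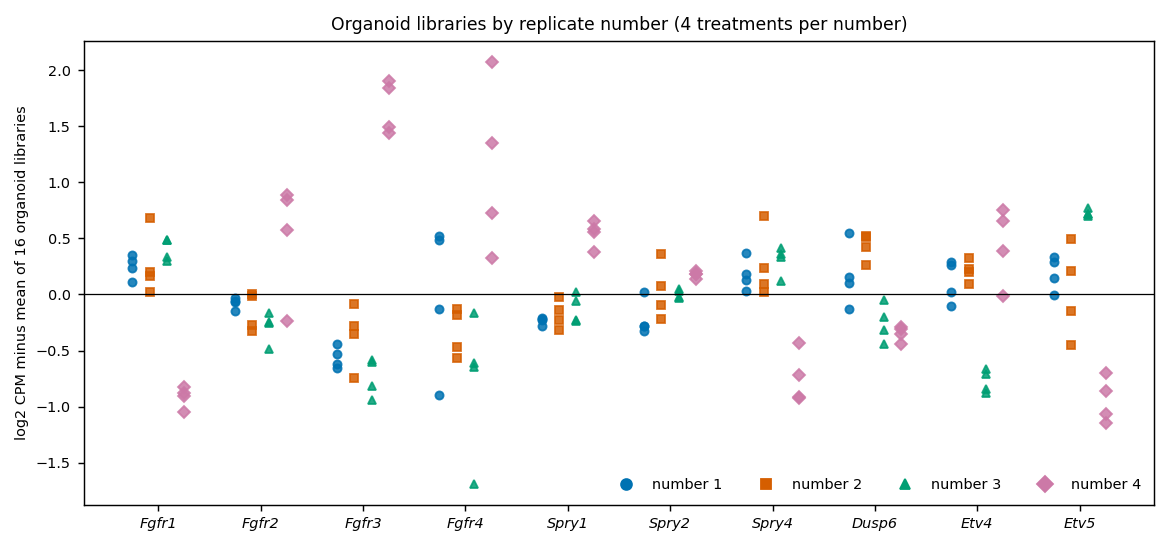
Log2 CPM of each gene in the 16 organoid libraries minus the gene's mean over them (y axis), with libraries split by replicate number, 4 treatments per number. Number 4 is low for Fgfr1, Spry4 and Etv5 and high for Fgfr3 and Spry1, and number 3 is low for Etv4 and high for Etv5.

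Members did not vary as a single unit from library to library. On log2 CPM with group means removed, the Pearson correlation of Etv4 and Etv5 was -0.78 over 16 organoids, -0.85 over the 12 organoids numbered 1 to 3 and 0.17 over 10 tumors. Dusp6 correlated with Etv4 at 0.25 over 16 organoids, 0.89 over those 12 and 0.49 over tumors. With Etv5 it correlated at 0.24, -0.72 and 0.28 in the same order. Spry4 and Etv5 correlated at 0.89, 0.46 and 0.65, and Fgfr4 and Etv4 at 0.69, 0.63 and 0.79. The values of Dusp6 with Etv4 and Etv5 and of Spry4 with Etv5 thus differed with and without the organoids numbered 4. Among those 12 organoids, number 3 held the lowest Etv4 and the highest Etv5 levels, so values over them also depend on number 3. The pairs printed are a selection, and others shifted more. Fgfr1 with Spry1 was at -0.89 over 16 organoids, 0.80 over those 12 and -0.24 over tumors. These points share libraries and, in organoids, replicate numbers, so the values are descriptions.

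The genes whose levels most resembled each member were ranked by the same correlation over all 26 libraries, among 12704 genes whose log2 CPM averaged 1 or more. Fgfr1 was closest to Krba1 (0.931), Rundc1 (0.926) and Ccdc157 (0.915). Fgfr2 was closest to Meis1 (0.848), Alcam (0.832) and Fst (0.831), and Fgfr3 to Kremen1 (0.917), Gjb6 (0.917) and Fcgbp (0.914). The nearest genes to Fgfr4 were Sema7a (0.850), Dsp (0.844) and Kif7 (0.838). For the Sprouty genes the nearest were Zadh2 (0.903) for Spry1, Phyhd1 (0.795) for Spry2 and Creb3l2 (0.912) for Spry4. Dusp6 was closest to Foxo1 (0.876), Etv4 to Hnrnph3 (0.916) and Etv5 to Mapk8ip1 (0.945). No member was among the 3 nearest genes of another member. Some pairs differed between the systems: Fgfr2 with Fst was at 0.934 over tumors and 0.274 over organoids. Dusp6 with Foxo1 was at 0.558 and 0.949 in that order. Group means were removed but the replicate number was not, so organoids that share a number are not separate points here.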

How the data were processed

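Polyadenylated RNA of tumors (10 libraries) and organoids (16 libraries) was extracted with TRIzol for TruSeq libraries, per the labels' protocols. The authors deposited raw read counts per gene, in 1 table per library. The submitters' processing notes name mm9 as the build and HTSeq, STAR, DESeq2, FastQC and CASAVA as tools; no source used here states their versions or the annotation. Of 37310 identifiers, 32620 matched a symbol in GENCODE M21 (GRCm38), which also gave positions and exon lengths. Lines for unassigned reads stayed out of library sizes and held, relative to assigned reads, 8.34 to 24.5% (no feature), 3.9 to 8.7% (ambiguous) and 21.2 to 44% (several alignments).

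Tumors and organoids were fitted separately, and together for comparisons between systems, with edgeR 4.0.16 in R 4.3.3 (quasi-likelihood F-test, TMM, filterByExpr with a minimum count of 10 and total of 15). Benjamini-Hochberg adjustment ran over all genes tested, and an adjusted p under 0.05 counted as a call. Log2 CPM used a prior count of 2. Alternatives were other size factors, no filter, DESeq2 1.42.0, limma 3.58.1 with voom quality weights, leaving out libraries and the replicate number as a block. Same-numbered organoid libraries correlated at 0.428 to 0.935 in their deviations from group means, over 0.1 in 24 of 24 pairs, so the numbers pair them; in tumors 3 of 9 pairs exceeded 0.1. No libraries of a group were alike within sampling noise (chi-square per degree of freedom at least 15). The fits were tested on simulated data.

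The 10 members and the pathway and cell type lists were chosen with earlier results of these data known. Named were all members, the gene of a list with the highest mean CPM, up to 3 called genes per list and comparison with the smallest p, and the 3 genes most correlated with a member; some that the rule picks are not printed. No source used here says whether strand was kept, so overlapping antisense reads cannot be told apart.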

Additional observations from a re-analysis of the deposited data

Results flagged for a closer look

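Each member was checked in the 5 groups of 4 libraries for a library far from the other 3, by Dixon's ratio with a limit of 0.829. Chance flags about 1 in 20 groups, and 11 of 50 were flagged, 10 of them for the organoid library numbered 4. Same-numbered organoid libraries deviated together, so these 10 flags are not separate events and cannot be set against that rate. By another measure, lack of overlap with the organoids numbered 1 to 3, 12.4% of 14202 genes were higher and 14.3% lower in number 4. The share of all genes flagged by Dixon's ratio is not given here. Fgfr3 stood out in number 4 of all 4 organoid groups: 31 CPM with ASO1 (others 4.48 to 7.08), 32.7 with ASO2 (5.76 to 6.78), 24.5 with scASO (4.92 to 6.35) and 23.5 with Mock (5.5 to 8.19). Fgfr2 did so with ASO1, at 60.7 CPM (others 27 to 31.3), and ASO2, at 58.9 CPM (26.1 to 29.6). Spry1 did so with ASO1, at 53.9 CPM (28.9 to 29.1), and scASO, at 44.2 CPM (28.8 to 30.9). Fgfr4 did so with ASO2, at 1.13 CPM (0.239 to 0.367), and Mock, at 1.88 CPM (0.355 to 0.588). The remaining case is a tumor, ASO2 replicate 2, with 7.34 CPM of Fgfr4 (others 0.843 to 1.25).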

How the results depend on the processing

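Across the 10 comparisons of oligonucleotides within a system and the difference between systems, 0 of 10 members were called under every alternative run. The calls over all genes were not stable there: DESeq2 called 112, 45, 20 and 149 of 17354 genes in the 4 tumor comparisons where edgeR called 1, 0, 0 and 0, and limma with voom weights called 3974 (ASO2 against scASO) and 1029 (both ASOs) of 17126 in organoids and 280 of 18695 for the difference between systems, where edgeR called 0. Of 3350 member values recomputed there, all stayed uncalled and 293 changed sign around 0. DESeq2 gave no adjusted p for Fgfr3 in organoids and Fgfr4 in tumors, and these were left out. The replicate block, which pairs the same-numbered libraries, gave 0 member calls in each comparison and changed no call on a member; over all genes it raised the calls against Mock from 0 to 407 (ASO1), 312 (ASO2) and 128 (scASO), and without both libraries that go against their labels to 1159, 593 and 308.

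For scASO organoids against scASO tumors, 4 to 8 members were called over 32 alternatives (4 to 6 when 1 library was left out). Over all genes, edgeR called 4392 of 18695, DESeq2 5370, limma with voom weights 10886, and edgeR without both libraries that go against their labels 3090 of 18632. Spry2, Spry4, Dusp6 and Etv4 were called in all 32, with log2 fold changes of 0.82 to 1.11, 1.36 to 1.78, 1.45 to 1.78 and 2.23 to 2.56. Etv5 was called in 21 and Fgfr4 in 24; without the filter on low counts their edgeR adjusted p was 0.0602 and 0.053. Fgfr1 and Spry1 were called in 2, limma with voom weights (log2 fold changes 1.01 and 0.39) and the mean of ASO1, ASO2 and scASO in each system (0.84 and 0.59), the settings with the most calls over all genes (10886 and 10901). Depth limits Fgfr4 most, with as few as 2 reads in an organoid library.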
